A study of Rattus norvegicus with 12 samples.

Results

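The unexposed cultures of this series were described from the 6 arrays whose titles name them as controls for acetamiprid, out of 12 arrays in all. The other 6 arrays held RNA of cultures exposed to acetamiprid, a neonicotinoid insecticide, and were not used here. All cultures were neuron-enriched cultures of the cerebellum of Sprague-Dawley rats, prepared from neonates 1 day after birth and harvested at 16 days in vitro (DIV). The control cultures received the solvent dimethyl sulfoxide at 0.001% from day 2, and the growth medium held 1% fetal bovine serum for 8 days and was then replaced by a serum-free medium with bovine insulin, transferrin, sodium selenite, thyroxine and putrescine, which all groups shared. The 6 replicates were independent culture experiments, the cells of an experiment came from the pooled, papain-digested cerebella of littermates, and several wells were used per group. A replicate therefore stands for a pool of pups and not for 1 animal.

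The newborn rat cerebellum holds granule cell precursors that still divide in the external layer, Purkinje cells that are already postmitotic and are the sole output neurons of the cortex, and GABAergic interneurons that go on being generated after birth. Astrocytes, including the Bergmann glia, oligodendrocyte lineage cells and microglia are present from birth. A culture made from the dissected organ can also carry cells of the meninges, the choroid plexus, blood vessels and tissue that lies beside the cerebellum.

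Gene expression was measured with 1-colour Agilent arrays of 30367 probes, and a signal is given as the log2 of the processed intensity after quantile normalisation between the 6 arrays, so that a difference of 1 unit is a 2-fold difference. A gene had the value of its brightest probe, and it was counted as well above background on an array where the scanner software made that call for any of its probes. Probes differ in brightness for reasons of sequence, and the percentile of a gene's mean signal among all probes is a description of the probe signal and sets no order of transcript amounts between genes. The arrays number 6, which limits the precision of each SD. All RNA was bulk RNA, in which fewer cells of a type and less RNA of that type per cell cannot be told apart.

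The 6 arrays were not alike in how they were made, and replicate 1 stood apart before any gene was considered. It was read by software version 11.0.1.1 and the other 5 by version 11.5.1.1. Replicate 3 alone was on release 2 of the array design, the other 5 on release 1. Replicate 1 lay in a scan batch of its own, as did replicates 2 and 3, while replicates 4, 5 and 6 shared a batch. Replicate 1 was also the brightest array, with a 75th percentile of processed intensity of 4272 against 1803 to 3903 on the others, and 91.0% of its spots were well above background against 75.9% to 84.7%. Over the 14432 genes whose probe was well above background on all 6 arrays, replicate 1 had the lowest correlation with the rest (median Pearson r across genes of 0.973, against 0.983 to 0.987 for the other arrays). Genes are not independent replicates, and these r values are descriptions. Several of the results that rest on replicate 1 are given with and without it.

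Of 20457 genes with a probe and a name, 14448 were well above background on all 6 control arrays, which is 70.6%, and 1774 on none of the 6, which is 8.67%. The 15 genes with the highest mean signal were Rpl41, Fabp5, Fth1, Actg1, Rplp0, Apoe, Ppia, Aldoc, Ftl1, Tf, Ceacam9, Gapdh-ps118, Ctsb, Cst3 and Pebp1. They include the ribosomal genes Rpl41 and Rplp0, the ferritin subunits Fth1 and Ftl1 and the cytoplasmic actin Actg1, which many cells use. Apoe, the main apolipoprotein of brain lipid transport, and Aldoc, the brain aldolase, are known for their high expression in astrocytes, and Tf encodes transferrin, which oligodendrocytes make. Gapdh-ps118 is a pseudogene of Gapdh, and how much of its probe signal belongs to Gapdh was not tested. All 15 housekeeping genes of a fixed list were on all 6 arrays, with a median percentile of 98.4.

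Genes of other organs were used to see how the detection call behaves at low signal. Of 13 genes typical of liver, pancreas, lung, kidney, retina, pituitary or testis, 4 were called well above background on all 6 arrays, namely Ins1 (preproinsulin), Sftpc (a surfactant protein of the lung), Umod (uromodulin of the kidney) and Prm1 (a sperm protamine), and 8 on some arrays. The 4 genes on all 6 arrays were 30.8% of this list, against 70.6% of all genes. The brightest of the 13, Sftpc, reached the 47.3rd percentile. Whether probe signal below that rank came from the transcript the probe is named for was not tested, and calls are therefore given here beside the rank.

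**Figure D1:**
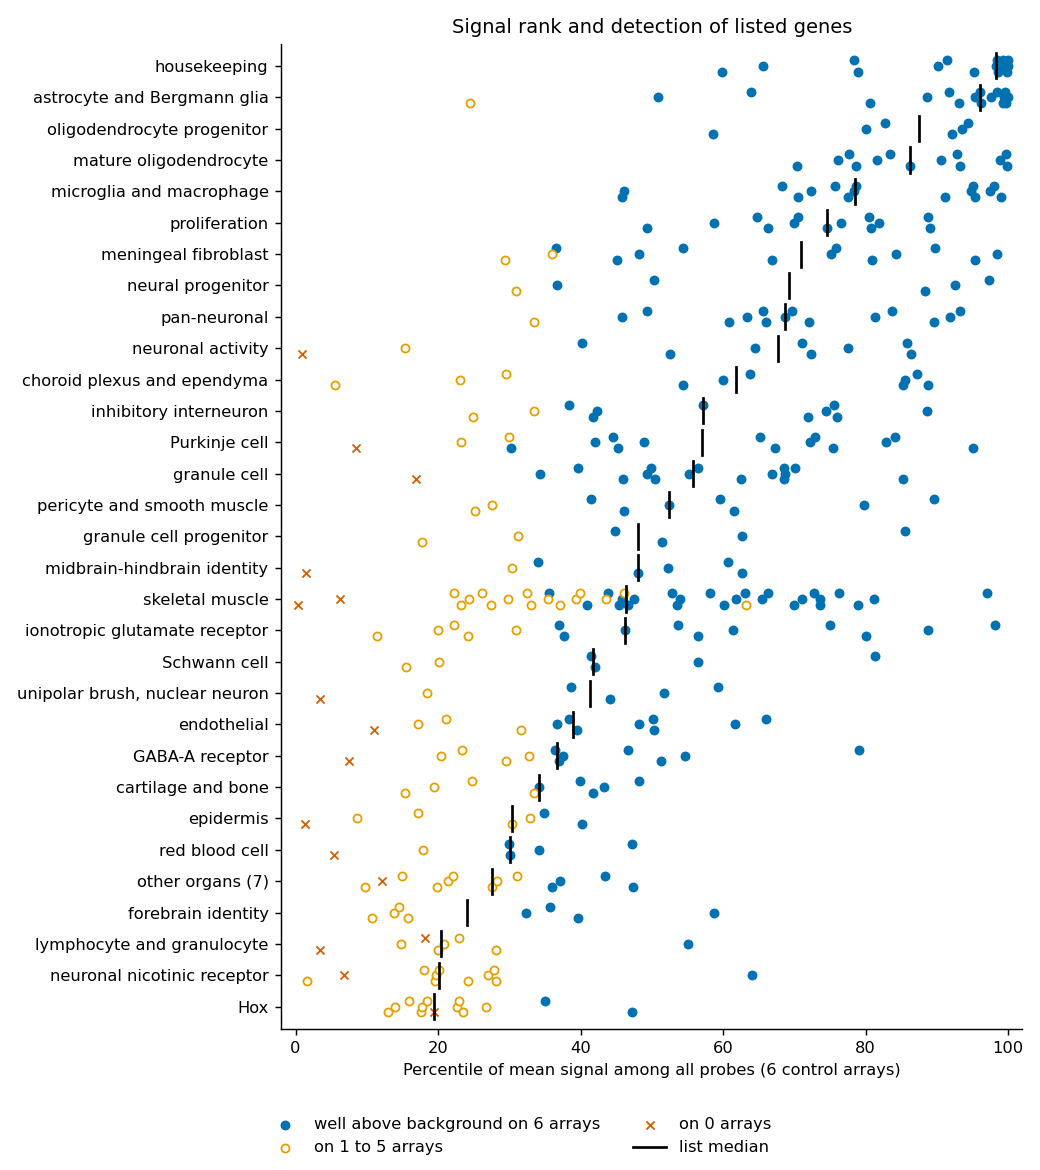
Each point is a gene of a fixed list, placed by the percentile of its mean signal over the 6 control arrays among all probes (x axis) and by its list (y axis). Filled points were well above background on all 6 arrays, open points on 1 to 5 and crosses on 0, and bars give the list median, which was 96.0 for astrocyte and Bergmann glia genes and 20.1 for neuronal nicotinic receptor genes.

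Of 15 pan-neuronal genes with a probe, 14 were on all 6 arrays (93.3%, against 70.6% of all genes), with a median percentile of 68.7. Uchl1, a neuronal deubiquitinase, was at a log2 signal of 13.77, 13.90 and 14.17 (lowest, median and highest of 6 arrays), and Stmn2, a regulator of microtubules in growing axons, at 12.84, 13.62 and 13.81. Tubb3, the neuronal tubulin that the antibody Tuj1 detects, lay at 9.81, 10.40 and 10.78. The exception was the vesicle calcium sensor Syt1, which was on 5 arrays and at the 33.5th percentile. Snap25, a SNARE protein of synaptic vesicle release, was at 8.83 on replicate 1 and between 9.75 and 10.83 on the other 5 arrays, and Nefl, the light neurofilament, was lowest on the same array at 6.54 against 7.17 to 8.32. The list was not uniform in this, because Map2, the dendritic microtubule protein, was highest on replicate 1 (12.90, against 11.36 to 12.28).

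Granule cell genes were on all 6 arrays for 15 of 16 genes (93.8%, against 70.6% of all genes), with a median percentile of 55.9. They include the transcription factors Pax6 (log2 signal 9.67, 9.83 and 10.22) and Zic1 (9.41, 9.68 and 9.98), which granule cells keep after leaving the cell cycle, and the secreted protein Reln (9.67, 9.93 and 10.00). These 3 genes had ranges of 0.55, 0.56 and 0.33 log2 over the arrays. Gabra6, the GABA-A receptor subunit of mature granule cells, was above background on all arrays at 4.82, 7.37 and 7.97. The 1 gene not above background on any array was Slc17a7, the vesicular glutamate transporter VGLUT1 of granule cell axon terminals, at the 16.9th percentile. Of the 6 genes listed for granule cell progenitors, Atoh1, Ptch1, Mycn and Ccnd1 were on all 6 arrays, and the sonic hedgehog target Gli1 on 1. Of these 4 genes 3 were lowest on replicate 3, against 20.7% of all genes.

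Of 16 Purkinje cell genes, 13 were on all 6 arrays (81.2%, against 70.6% of all genes; median percentile 57.0). Pvalb, a calcium buffer that interneurons of the molecular layer also express, had the highest rank at the 95.1st percentile, with a log2 signal of 13.77, 14.43 and 14.93. Calb1, the calbindin used to stain Purkinje cells, was at 10.31, 10.71 and 11.98, and Pcp2, an L7 family protein of Purkinje cells, at 9.09, 10.28 and 11.29. The corepressor Skor2 was on none of the arrays, and Foxp2 and Lhx5 were on 4 and 3.

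Genes of GABAergic and glycinergic interneurons were on all 6 arrays for 9 of 11 genes (81.8%, against the same 70.6%), with a median percentile of 57.2. The GABA synthesis enzyme Gad1 lay at 9.56, 10.86 and 11.44, the vesicular transporter Slc32a1 at 9.70, 10.89 and 11.72, and the peptide gene Sst at 8.72, 10.70 and 11.38. Pax2, a factor of immature interneurons, was on 5 arrays, and Ptf1a, which specifies GABAergic precursors, on 3. Among markers of unipolar brush cells and cerebellar nuclear neurons, Lmx1a and Slc17a6 were on all 6 arrays and Tbr1 on 0. Eomes, the marker of unipolar brush cells, was at 9.16 on replicate 6 and between 5.27 and 7.14 on the other arrays.

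Many neuronal genes were lowest on replicate 1. Over the 6 neuronal cell lists, 33 of the 59 genes whose probe was well above background on every array had their lowest value there (55.9%), against 28.2% of all genes of that kind. The count was 8 of 9 for interneuron genes, 9 of 13 for Purkinje cell genes, 7 of 15 for granule cell genes, 7 of 14 for pan-neuronal genes and 1 of 4 each for granule cell progenitor genes and for unipolar brush and nuclear neuron genes. The trait was shared by some glial genes, since 5 of 6 oligodendrocyte progenitor genes and 8 of 16 microglial genes were also lowest there. Of the 59 neuronal genes, 10 were highest on replicate 1 (16.9%, against 25.1% of all genes). The granule cell progenitor list had its highest mean on replicate 1, 7.76 against 7.01 to 7.55, but over its 4 genes on all arrays replicate 2 was highest (9.18, against 9.10 on replicate 1). The mean of the interneuron list was 7.68 on replicate 1 and between 8.16 and 8.74 on the others, and the mean of the granule cell list was 7.63 against 7.99 to 8.60. With each array shifted to a common 75th percentile in place of quantile normalisation, the interneuron list was lowest on replicate 1 by a narrow gap (8.03, against 8.06 on replicate 6), while replicate 6 was lowest for the granule cell and Purkinje cell lists and replicate 3 for the pan-neuronal list. The count of neuronal genes lowest on replicate 1 was then 31 of 59 (52.5%), against 17.0% of all genes.

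Single genes separated replicate 1 further than the lists did. Neurod1, a transcription factor of granule cells, had a log2 signal of 7.09 on replicate 1 and of 9.08, 9.87, 9.72, 9.86 and 9.08 on replicates 2 to 6. Cbln1, which granule cells secrete to join their synapses to Purkinje cells, had 8.09 there and 9.96 to 10.86 elsewhere. Gabra6 had 4.82 there and 6.74 to 7.97 elsewhere. In each of these genes replicate 1 lay below all other arrays and did not overlap with them. Without replicate 1 the SD fell from 1.06 to 0.41 for Neurod1, from 1.02 to 0.36 for Cbln1 and from 1.14 to 0.45 for Gabra6. The Purkinje cell genes Lhx1 (2.82 against 4.74 to 5.62) and Ppp1r17 (4.83 against 6.25 to 7.92) and the glycine transporter Slc6a5 (4.32 against 5.98 to 6.88) were likewise lowest on replicate 1. Lhx1 and Slc6a5 ranked at the 30.3rd and 38.4th percentiles, below Sftpc, where the source of the signal was not tested. Calb1 was 1 of the 10 neuronal genes highest on replicate 1, with 11.98 there and 10.31 to 10.72 on the other 5 arrays. The software version, the scan batch and the brightness of the array went with replicate 1 too, so that they and the culture experiment cannot be told apart.

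**Figure D2:**
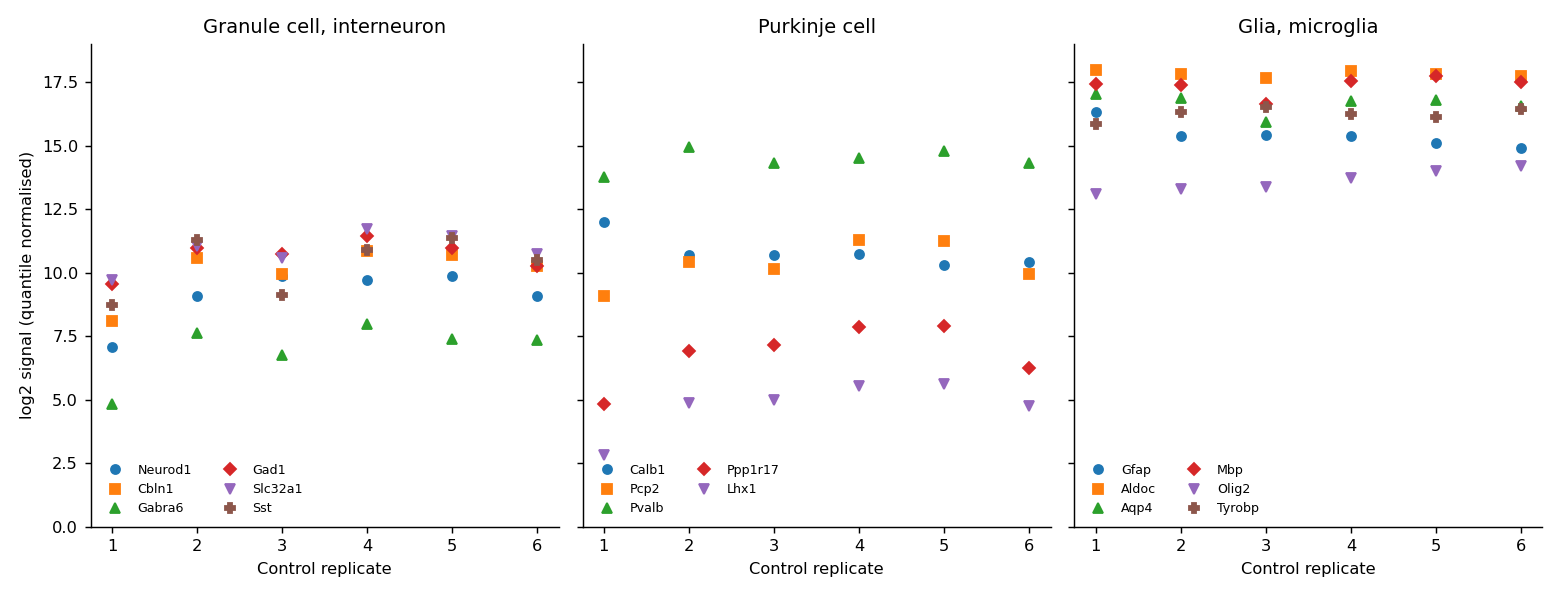
Points give the log2 signal (y axis, quantile normalised) of named genes on each of the 6 control arrays (x axis, replicate number). Neurod1, Cbln1, Gabra6 and Ppp1r17 lie lowest on replicate 1, Calb1 and Gfap lie highest there, and Aldoc stays within 0.31 log2 over the 6 arrays.

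The receptors of the main cerebellar transmitters were described because the study added a ligand of nicotinic receptors. Of 11 neuronal nicotinic subunits, Chrnb4 alone was well above background on all 6 arrays (9.09%, against 70.6% of all genes), at a log2 signal of 9.06, 9.33 and 9.45 and a range of 0.39. Chrna3, Chrna4 and Chrna7 were called on 2, 4 and 4 arrays at percentiles of 20.1, 27.0 and 27.9, Chrna5 on 5 and Chrnb2 on 2 at the 24.1st percentile. These ranks lay below those of Sftpc and Ins1, and a call at such a rank cannot settle whether the transcript was present. The paper measured Chrna3, Chrna4 and Chrna7 by qRT-PCR in the RNA used for the arrays and reported their expression. Of 15 ionotropic glutamate receptor genes, 10 were on all arrays (66.7%, against 70.6% of all genes), including all 4 AMPA receptor subunits Gria1, Gria2, Gria3 and Gria4, whereas the obligate NMDA subunit Grin1 was called on 1 array at the 22.2nd percentile. Grin2d, an NMDA subunit of early development, had a bright probe at the 98.1st percentile (16.13, 15.75, 14.22, 15.86, 15.98 and 15.98 on replicates 1 to 6), with replicate 3 below the rest. The GC content of this probe was 78.3%, and the deviations of replicate 3 from the other arrays correlated with probe GC content across genes (r = -0.27). Of the 7 listed genes with replicate 3 apart at the low end, 4 had probes of 35.0% to 45.0% GC. What part GC content had in the low values was not tested.

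Of 12 GABA-A receptor subunits, 7 were on all 6 arrays (58.3%, against 70.6% of all genes). Gabrg1, a subunit known from Bergmann glia, had the highest rank, the 79.0th percentile, and a range of 0.80 log2. Over both receptor lists, 9 of 17 genes on all arrays were lowest on replicate 1, against 28.2% of all genes, and 7 of 17 with the shift to a common 75th percentile, against 17.0%. The mean of the glutamate receptor list was lowest on replicate 1 as well (7.04, against 7.46 to 7.70), but with the shift to a common 75th percentile both lists were lowest on replicate 3, and the GABA-A receptor list was lowest on replicate 2 with the outlier spots kept or in the deposited values.

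Of 17 astrocyte and Bergmann glia genes, 16 were on all 6 arrays (94.1%, against 70.6% of all genes), with a median percentile of 96.0. Gdf10, a Bergmann glia gene, was on 3. Fabp7 (a radial glial lipid carrier, 16.61, 17.13 and 17.33), S100b (16.36, 16.80 and 17.34), Aqp4 (the astrocytic water channel, 15.91, 16.78 and 17.05) and Slc1a3 (the glutamate transporter GLAST, 15.64, 15.88 and 16.09) were above the 98th percentile on average. Gfap, the intermediate filament of astrocytes, was at 16.32 on replicate 1 and 14.89 to 15.42 on the other 5 arrays. Of the 16 genes, 8 were highest on replicate 1, against 25.1% of all genes, and 0 were lowest there, against 28.2%. With the shift to a common 75th percentile the counts were again 8 and 0, against 34.5% and 17.0% of all genes. On replicate 3, 7 of the 16 were highest and 6 lowest, against 26.1% and 20.7% of all genes. The list mean was 14.05 on replicate 1 and 13.29 to 13.80 on the others, and replicate 1 was highest under each alternative scaling and background setting tried. Gjb6 and Gja1, the connexins of astrocytic gap junctions, differed most between cultures of this list. Gjb6 had 8.53, 7.66, 9.07, 8.18, 6.18 and 5.96 on replicates 1 to 6, and Gja1 14.95, 14.21, 14.35, 13.74, 13.09 and 12.85. Both were lowest on replicates 5 and 6, which shared a scan batch with replicate 4.

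The oligodendrocyte lineage was present at several stages. All 6 progenitor genes with a probe and all 13 genes of mature oligodendrocytes were on all 6 arrays, against 70.6% of all genes. Their median percentiles were 87.5 and 86.3. The myelin genes Mbp (16.65, 17.46 and 17.75) and Mag (15.75, 16.19 and 16.67) ranked above the 98th percentile. Replicate 2 had the lowest mean of the mature list, 12.57 against 13.03 to 13.45 on the other 5 arrays. The transcription factors Olig1, Olig2 and Sox10 were higher on every array of the scan batch of replicates 4, 5 and 6 than on any other array. Olig2 had 13.11, 13.30 and 13.38 on replicates 1 to 3 and 13.74, 13.99 and 14.20 on replicates 4 to 6. This held for 9 of the 19 genes of both lists, against 9.24% of all genes, and the batch and the culture experiments cannot be told apart.

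All 16 microglial genes were on all 6 arrays, against 70.6% of all genes (median percentile 78.6). Their list mean lay between 11.91 and 12.23. Their median SD was 0.22 log2 and 5 had a 2-fold range, against 0.25 and 26.7% for all genes. The adaptor Tyrobp was at 15.87, 16.28 and 16.53, its partner receptor Trem2 at 15.09, 15.61 and 16.28, and the complement gene C1qb at 14.14, 14.29 and 14.66. The homeostatic genes P2ry12 and Tmem119 were at the 68.2nd and 46.1st percentiles. Itgam, which encodes the CD11b antigen that the antibody OX42 detects, was at 11.36 on replicate 6 and within 10.03 to 10.28 on the other arrays. Of the 16 genes, 7 were highest on replicate 6, against 15.6% of all genes, 7 were highest on replicate 3, against 26.1%, and 8 were lowest on replicate 1, against 28.2%. Of the genes highest on replicate 6, Itgam was the one whose value on replicate 6 stood furthest from the other arrays.

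Of 6 neural progenitor genes 5 were on all arrays (83.3%, against 70.6% of all genes). Of these Nes, the intermediate filament nestin, and Hes1, a Notch target, had 2.21-fold and 2.07-fold ranges. Sox2, a factor of neural stem cells and astroglia, had a range of 0.19 log2 around a median of 15.28. All 13 proliferation genes, among them Mki67, Top2a and Cdk1, were on all 6 arrays, against the same 70.6%. Their median percentile was 74.6 and their median SD 0.17, and Birc5 alone of them had a range of 1 log2 or more (1.36).

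Genes of cells from outside the neural tissue were read against the 70.6% of all genes that were on all 6 arrays. Of 14 meningeal fibroblast genes, 12 were on all arrays, with the collagen gene Col1a2 at 15.56, 15.80 and 16.34, and 7 of the 12 were highest on replicate 2, against 16.0% of all genes. Of 12 endothelial genes, 8 were on all arrays (66.7%), and the tight junction gene Cldn5 and the receptor Tek were on 2 and 0. Of 10 genes of choroid plexus and ependyma, 7 were on all arrays (70.0%). Both shares were near that of all genes. Ttr, the transthyretin gene that choroid plexus epithelium expresses at a very high level, had a log2 signal of 10.04, 8.78, 15.35, 14.79, 13.24 and 11.64 on replicates 1 to 6. Replicates 3 and 4 were high and replicate 2 was low, a range of 6.57 log2 or 95.1-fold, and its SD was 2.62 over 6 arrays and 2.65 without replicate 1. Other genes of the list that were on all arrays had far smaller ranges. Foxj1 and Rsph1, genes of motile cilia, had ranges of 0.91 and 1.04, and Folr1, Otx2 and Kcne2 ranges of 1.22, 0.85 and 0.76, and the water channel Aqp1 one of 1.97, while Kl, Clic6 and Kcnj13 were on 1, 2 and 4 arrays.

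Of the fixed lists, that of skeletal muscle differed most between the control cultures. This list was known from earlier results of these data to vary, so its place is a description. The list held 42 genes, of which 25 were well above background on all 6 arrays (59.5%, against 70.6% of all genes). Another 15 were so on 1 to 5 arrays and 2 (Myf6 and Musk) on 0. By array, the probe was well above background for 40, 40, 36, 24, 27 and 36 of the 42 genes on replicates 1 to 6. The share of all spots so called was 91.0%, 80.4%, 84.7%, 75.9%, 78.3% and 78.3%, so the counts also follow the brightness of the arrays in part. The mean of the 41 genes with a value on every array was 9.08, 9.75, 6.28, 6.00, 6.20 and 7.55 on replicates 1 to 6, an SD of 1.61 log2. It was highest on replicate 2, next on replicate 1, intermediate on replicate 6 and low on replicates 3, 4 and 5. The next largest SD of a list mean with more than 1 gene was 0.51, for the GABA-A receptor genes, and this SD was 0.39 without replicate 1. The muscle mean includes genes that were not well above background on some arrays, and over the list genes on all arrays its SD was 1.24. Without replicate 1 the SD of the muscle list mean was 1.57. Within the scan batch of replicates 4, 5 and 6 the list mean still had a range of 1.54 log2, against 3.74 over all arrays.

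The upstream sequences of 3 sarcomere genes are shown because these genes were among the 30 with the largest SD: Myl11 (listed in the files as Mylpf), the fast regulatory myosin light chain, and Acta1 and Actc1, the skeletal and cardiac actins, both of which developing skeletal muscle uses. The 250 bases before the annotated start are given 5′ to 3′ on the strand of the gene, from RefSeq on the build GRCr8, at chr1:191260039-191260288 (plus strand) for Myl11, chr19:68784195-68784444 (minus strand) for Acta1 and chr3:121271828-121272077 (minus strand) for Actc1. Capitals mark CAGCTG, the E-box that MyoD family factors bind, and TATAAA.
Myl11: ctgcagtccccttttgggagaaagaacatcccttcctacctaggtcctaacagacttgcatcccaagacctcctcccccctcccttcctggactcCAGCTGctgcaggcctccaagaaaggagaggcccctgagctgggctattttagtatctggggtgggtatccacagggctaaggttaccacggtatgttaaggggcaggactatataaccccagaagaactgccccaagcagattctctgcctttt
Acta1: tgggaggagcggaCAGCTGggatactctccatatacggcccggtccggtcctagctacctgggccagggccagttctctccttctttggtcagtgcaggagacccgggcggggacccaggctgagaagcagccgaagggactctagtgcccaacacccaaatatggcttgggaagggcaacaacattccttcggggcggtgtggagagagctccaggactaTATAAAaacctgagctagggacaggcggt
Actc1: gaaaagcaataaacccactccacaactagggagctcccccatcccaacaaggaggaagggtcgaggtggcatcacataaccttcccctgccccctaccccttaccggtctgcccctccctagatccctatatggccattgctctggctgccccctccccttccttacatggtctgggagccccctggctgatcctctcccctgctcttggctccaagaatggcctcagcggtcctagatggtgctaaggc
Searched on both strands, CAGCTG was found in 13 of 36 muscle list promoters with a sequence (36.1%) and in 11.9% of all 27457 promoters, TATAAA in 11 of 36 (30.6%) and in 13.1%, and TAAAAATA, a form of the site of MEF2 factors, in 0 of 36 and in 2.51%. A match is a description of the letters, and a window without a match says nothing of the factor.

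Myl11 had the largest SD of the 14432 genes. Its log2 signal was 13.67, 14.49, 8.14, 7.21, 7.38 and 11.68 on replicates 1 to 6, an SD of 3.27 and a range of 7.28 log2, or 155-fold. It was high on replicates 1 and 2, lower on replicate 6 and low on replicates 3, 4 and 5. Actc1 had 13.96, 14.19, 9.84, 10.06, 9.98 and 11.50, and Acta1 10.78, 10.91, 6.14, 5.09, 6.78 and 8.10, with the same order of high and low arrays apart from the 3 lowest. The rn4 positions of their probes are chr1:186474405-186474464, chr3:99901091-99901150 and chr19:54082977-54083036. The fast troponin I gene Tnni2 (6.94, 7.69 and 11.31), the oxygen store myoglobin Mb (8.15, 8.83 and 11.53), the calcium pump Atp2a1 (6.02, 7.16 and 11.11) and the fetal acetylcholine receptor subunit Chrng (6.05, 7.89 and 10.78) were also among the 30 genes with the largest SD, which held 8 muscle list genes in all.

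Several muscle genes were not well above background on all arrays, so their ranges are not set against those above. Myl1, a fast myosin light chain, had 10.57, 11.08, 2.92, 1.45, 2.89 and 8.33 on replicates 1 to 6, Sln, the sarcolipin that regulates the calcium pump, 11.00, 11.83, 4.93, 1.96, 2.84 and 9.50, and the slow troponin I gene Tnni1 9.93, 10.62, 4.22, 2.19, 1.93 and 7.81. They were on 3, 4 and 4 arrays, and values on the remaining arrays have no order among themselves. The myogenic factor Myod1 was on 3 arrays, at 6.28, 8.08 and 4.89 on replicates 1, 2 and 6, and Myog, which drives the fusion of myoblasts, was on all 6 at 5.72, 6.35 and 8.56. The fusion factor Mymk (listed in the files as Tmem8c) was on 3 arrays. Embryonic myosin Myh3 was at 12.94, 13.87 and 10.66 on replicates 1, 2 and 6 and at 4.72 to 7.43 on the others.

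Other muscle list genes were present on every array. Myh8, the perinatal myosin heavy chain, had 14.84, 16.01, 14.63, 14.47, 15.77 and 15.44 on replicates 1 to 6 and ranked at the 97.1st percentile, and Myh1 and Myh2, fast adult myosins, had ranges of 1.66 and 2.29. These 3 genes lie in 1 cluster with near-identical sequences, and cross-hybridisation between their probes was not tested. The satellite cell gene Myf5 had the narrowest range of the 24 list genes whose used probe was on all 6 arrays, 1.25 log2, and all 24 had a range of 1 log2 or more, against 26.7% of all genes. Replicates 1 and 2 held the highest pair of values for 19 of the 24 genes, and for 17.4% of all genes. This pair was noted in the same values, and the list was known from earlier results of these data to vary. Both counts are therefore descriptions.

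Some genes outside the list were high on the same arrays. Myl4, an embryonic and atrial myosin light chain, had 10.92, 11.92, 6.73, 6.55, 6.47 and 8.91 on replicates 1 to 6, the imprinted RNA H19 had 12.87, 13.05, 8.79, 8.42, 8.69 and 11.10, and the growth factor gene Igf2, its neighbour at the same imprinted locus, 12.50, 12.93, 10.95, 10.27, 10.59 and 12.07. Ampd1, the AMP deaminase of muscle, and Ankrd1, a stress protein of striated muscle, were highest on replicate 2 (10.61 and 10.57) and lowest on replicate 4 (5.35 and 6.50). Igf2 was listed here as a meningeal gene and enters that list's mean. The meningeal list mean was 9.79, 10.18, 10.09, 9.32, 9.48 and 9.65 on replicates 1 to 6, highest on replicate 2. What the meningeal cells contributed to Igf2 or H19 was not tested.

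**Figure D3:**
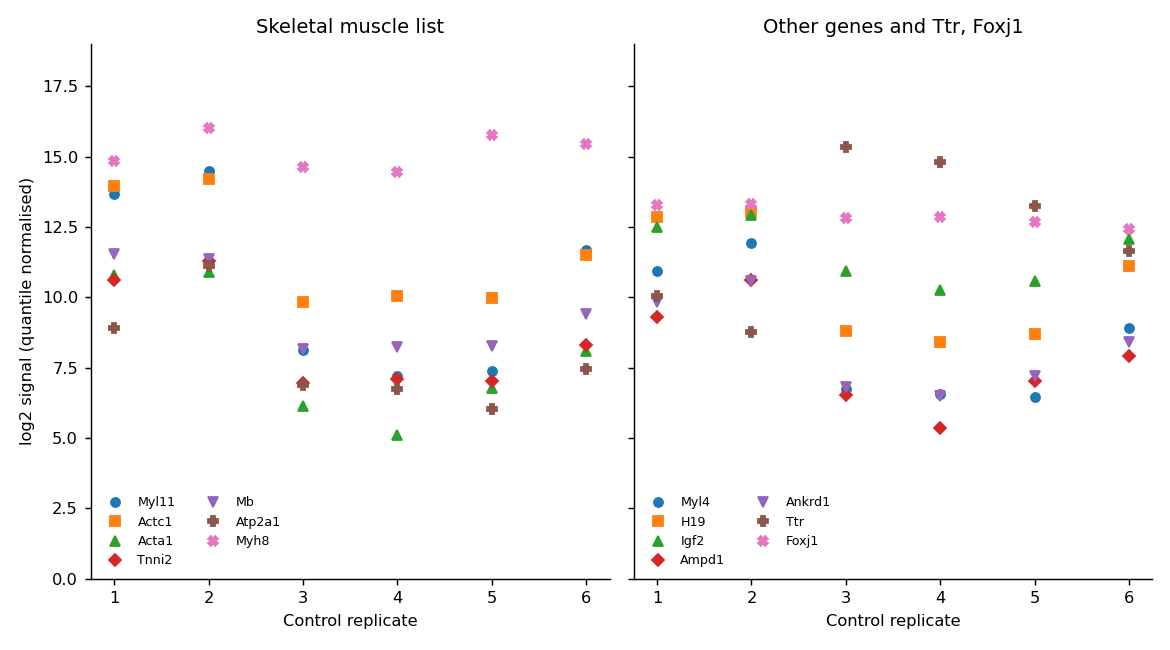
Points give the log2 signal (y axis, quantile normalised) on each control array (x axis, replicate number), at left for 7 skeletal muscle list genes and at right for 5 other genes with Ttr and Foxj1. Myl11 lies at 13.67 and 14.49 on replicates 1 and 2 and at 7.21 to 8.14 on replicates 3, 4 and 5, Ttr is lowest on replicate 2 at 8.78, and Foxj1 stays within 0.91 log2.

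**Figure D4:**
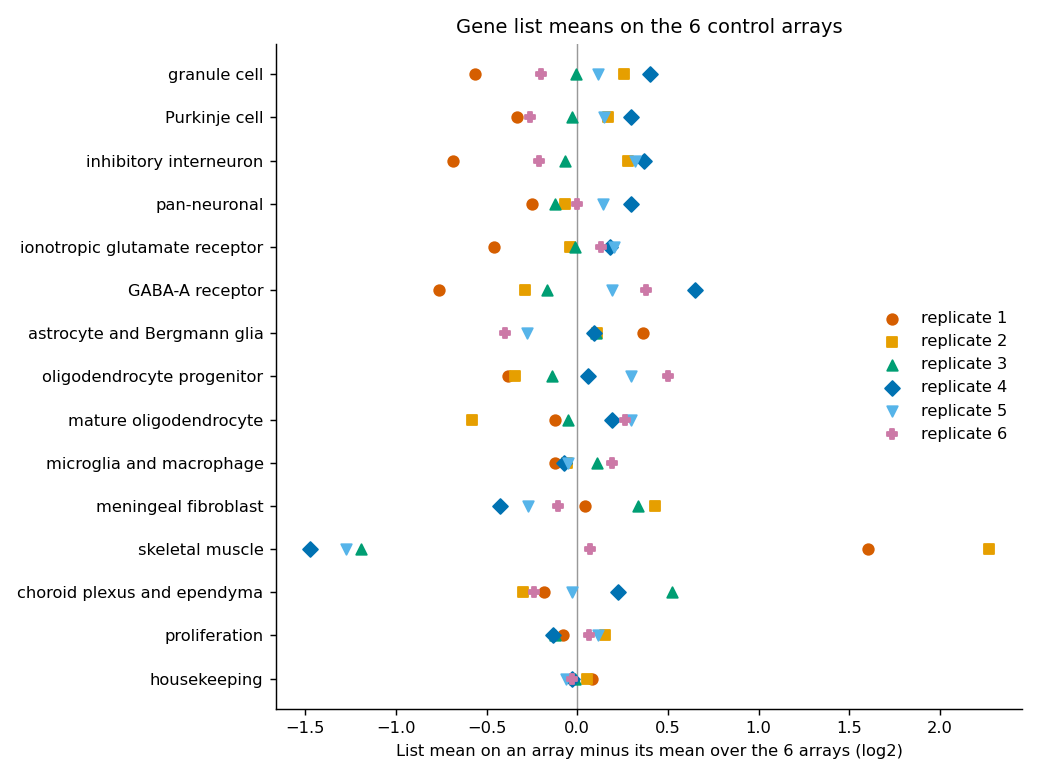
For each list (y axis), points give its mean on an array minus its mean over the 6 arrays (x axis, log2), with 1 symbol per replicate. The skeletal muscle list spans 3.74 log2, the housekeeping list 0.14, and the pan-neuronal, granule cell, Purkinje cell and interneuron lists lie lowest on replicate 1, which under the shift to a common 75th percentile held for the interneuron list alone of these 4.

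Across all 14432 genes on all 6 arrays the SD between control cultures had a median of 0.25 log2, quartiles of 0.16 and 0.39 and a 95th percentile of 0.69. A range of 1 log2 or more was found in 3854 genes (26.7%), of 3 log2 or more in 126, and an SD above 1 in 189. Spread fell with signal: in 5 groups of equal size from dim to bright, the median SD was 0.39, 0.30, 0.23, 0.20 and 0.17, and the share with a range of 1 log2 or more went from 53.3% to 10.9%. Spots give the part of this spread that arises within an array. For 1255 probes printed 10 times and well above background on all arrays, the median SD between spots of an array was 0.058 and the median SD between arrays 0.21, and the SD between arrays was the larger in 98.5% of probes. The spot SD is that of single spots, while an array value of these probes is a mean of 10 spots, with an expected SD of 0.018. With normexp background correction the median SD between spots was 0.191. The median SD between cultures was then 0.20 over all genes on all 6 arrays, which is a different set from the probes printed 10 times. The spots measure noise within an array and leave out labelling and hybridisation.

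**Figure D5:**
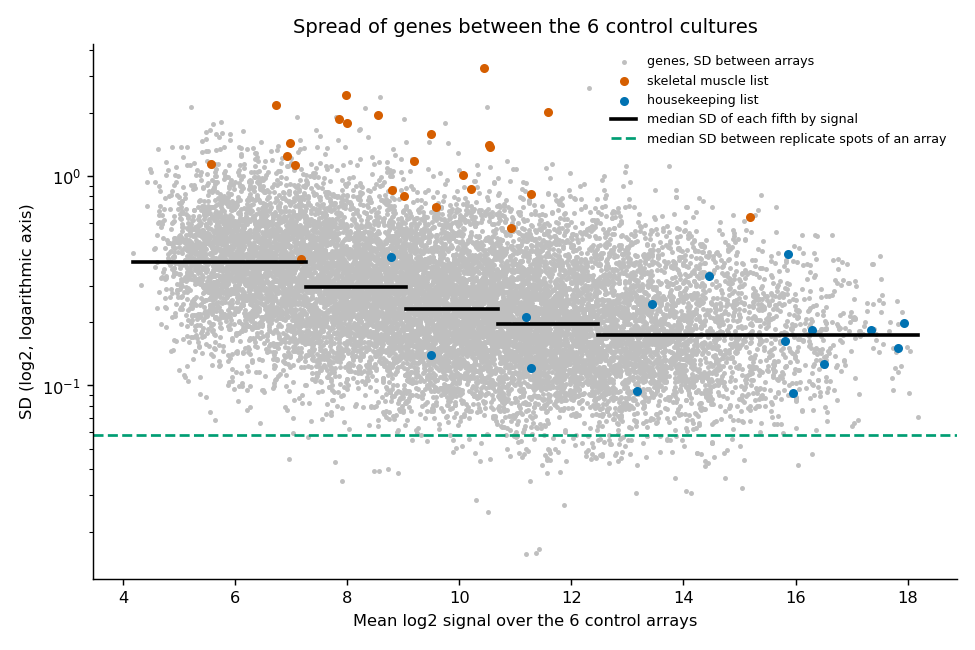
Each grey point is a gene well above background on all 6 control arrays, with its mean log2 signal (x axis) and its SD between arrays (y axis, log2 units on a logarithmic axis). Bars give the median SD of 5 equal groups by signal, from 0.39 to 0.17, the dashed line the median SD between replicate spots (0.058), orange points the skeletal muscle list and blue points the housekeeping list. The 24 skeletal muscle genes each have a range of 1.25 log2 or more.

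Spread was not shared evenly by the arrays. Replicate 1 held the highest value of 36.7% and the lowest of 28.7% of the 3854 genes with a range of 1 log2 or more, and replicate 3 held 19.4% and 27.5%. The first principal component of the centred values, with 45.5% of the variance, had its largest loading on replicate 1 (0.79), and the second, with 25.3%, on replicate 3 (0.82). Without replicate 1 the count of genes with such a range was 2422, and within the scan batch of replicates 4, 5 and 6 it was 662, where 3 arrays rather than 6 set the range.

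Other genes with the largest SD included several that were high on 1 array. Otor, an inner ear and cartilage protein, was at 10.91 on replicate 3 and 5.85 to 7.01 on the others. Dmbt1, a secreted mucosal scavenger protein, was at 9.40 on replicate 4 and 4.79 to 5.35 on the others, and the serine protease gene Prss56 was also high on that array (8.66 against 4.81 to 6.18). Lcn10, a lipocalin, was at 9.03 on replicate 5 (others 4.74 to 5.91) and Diras2, a Ras-like GTPase, at 8.49 on replicate 6 (others 4.34 to 5.06). In these 5 genes 1 array lay above the other 5. In the order given, their mean signals ranked at the 46.9th, 36.8th, 36.6th, 37.9th and 35.0th percentiles, below the lung gene Sftpc. Whether the signals came from the named transcripts was not tested. Id3, an inhibitor of basic helix-loop-helix factors, had 11.23, 10.07, 6.95, 5.37, 8.24 and 8.00 on replicates 1 to 6, and Actg2, the enteric smooth muscle actin, 8.38, 8.99, 9.98, 5.93, 7.27 and 9.62. Without replicate 1, the 10 genes with the largest SD were Myl11, Ttr, Myl4, Acta1, Lmod2 (leiomodin, an actin nucleator of the sarcomere), Otor, H19, Atp2a1, Dmbt1 and Ampd1.

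At the opposite end, the 10 genes with the lowest SD were Aida, Akap17a, Tlr2, Zfp445, Btbd10, Cuta, Bnip3, Kars1, Mrpl54 and Psmc2. Aida, an inhibitor of axis formation signals, lay between 11.16 and 11.20, and Psmc2, an ATPase of the proteasome, had a median of 15.04 and a range of 0.09. Their SDs lay below the median SD between spots of an array. Of the housekeeping genes, Pgk1 had a range of 0.25 and Ywhaz of 0.26, while B2m (1.19) and Polr2a (1.26) had ranges above 1 log2.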

How the data were processed

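RNA of 6 control cultures was hybridised to 1-colour Agilent whole rat arrays. The deposited scanner files give, per the file headers, a background-subtracted, processed intensity for each spot, 0 or 1 calls for a spot well above background, and probe positions on rn4, made with Feature Extraction 11.0.1.1 for replicate 1 and 11.5.1.1 for the rest. The table deposited by the authors holds log2 values that their methods describe as quantile normalised and centred on each probe's median over all samples. Its control columns had medians of -0.0201 to 0.0102, correlated with the values used here at 0.950 to 0.989 across probes once both were centred on the mean of the 6 arrays, and served as an alternative.

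Control spots and outlier spots (240 to 392 per array) were left out, the log2 processed intensity was quantile normalised among the 6 arrays with limma 3.58.1 in R 4.3.3 (data.table, version 1.17.8), and spots of a probe were averaged. A probe was well above background on an array where at least a share of 0.5 of its spots were. Of 30367 probes, 24957 were named, 18670 by accession and the others by symbol, synonym or the file's own name. For the 3978 genes with several probes the brightest was used, and in 126 of them the probes disagreed. Later steps used Python 3.11.15 with numpy 2.4.6, pandas 2.3.3 and matplotlib 3.10.9. The calculation of spread was tested on simulated data. No groups were compared. The one test was Dixon's ratio for a single array apart from the other 5, in the listed and named values and over all genes.

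Members and the 32 gene lists (384 genes, 369 with a probe) were chosen with earlier results of these data known. Named genes are defining markers of the lists, the 30 genes with a symbol and the largest SD, the 10 with the largest SD without replicate 1, the 15 brightest, the 10 with the lowest SD, and listed genes with a range of 1 log2 or more and 1 array past Dixon's 95% critical value. Counts of genes highest or lowest on a given array, and the genes Myh8, Igf2 and those that were not on all arrays, were chosen after the values were seen. Alternatives covered the scaling, background correction, outlier spots, detection rule, probe rule, deposited values, dim genes, the scan batch and leaving out each replicate. Some genes of the lists are not reported here.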

Additional observations from a re-analysis of the deposited data

Results flagged for a closer look

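Of 333 listed or named values examined, 31 (9.31%) had 1 array beyond Dixon's 95% critical value for 6 samples, which chance alone gives in about 1 in 20 groups. That share is not to be read against the chance share, since 6 of the 31 are genes named for their large SD. Among all genes on all 6 arrays 1132 (7.84%) had such an array. Replicate 1 was the array apart in 10 of the 31 and replicate 3 in 8.

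Replicate 1 was low for the granule cell genes Neurod1 (7.09) and Cbln1 (8.09), for the Purkinje cell genes Lhx1 (2.82) and Homer3 (9.39, others 9.73 to 9.86), for the interneuron genes Slc6a5 (4.32) and Nxph1 (10.19, others 10.78 to 11.12), for Lhx2 (5.29, others 6.12 to 6.59) and for the mean of the ionotropic glutamate receptor list (7.04), whose difference from the others was -0.55, or -0.02 with the shift to a common 75th percentile. Of these genes, Lhx1, Slc6a5 and Lhx2 ranked below Sftpc, at the 30.3rd, 38.4th and 39.6th percentiles. Replicate 1 was high for Calb1 (11.98) and Gfap (16.32). The parts of the older software, the scan batch and the culture in these values cannot be told apart.

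Replicate 3 was low for the neuronal genes Nefm (8.46, others 9.30 to 9.50) and Stmn2 (12.84, others 13.49 to 13.81), for Mbp (16.65, others 17.39 to 17.75), for the bone factor Sp7 (5.64), for the isthmus signal Wnt1 (6.71) and for the receptor subunits Grin2d (14.22) and Gabrd (6.64, others 7.72 to 8.07), and high for Otor (10.91). Sp7 and Otor ranked below Sftpc, at the 43.3rd and 46.9th percentiles.

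Replicate 6 was low for the channel gene Trpc6 (5.06, others 8.10 to 9.85), the Purkinje cell calcium channel Itpr1 (11.31, others 11.84 to 12.15), Foxc1 (9.36, others 9.65 to 9.79) and the lymphocyte and granulocyte list mean (3.21, others 3.75 to 3.99), and high for Itgam (11.36) and Diras2 (8.49). Replicate 2 was low for the myelin gene Mobp (13.28, others 13.88 to 14.23) and high for Tagln (13.47, others 12.89 to 13.06) and En1 (9.45). Replicate 4 was high for Dmbt1 (9.40) and Prss56 (8.66), and replicate 5 was high for Lcn10 (9.03) and low for Cd14 (10.81, others 11.26 to 11.46). Dmbt1, Prss56, Lcn10 and Diras2 ranked below Sftpc, at the 36.8th, 36.6th, 37.9th and 35.0th percentiles. Of the 8 lymphocyte and granulocyte genes 1 was on all 6 arrays, so that list mean is mostly of probes not well above background on some arrays, and the value of that gene was lowest on replicate 3.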

How the results depend on the processing

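No paired analysis was possible because no groups were compared. The count of genes on all arrays, 14448, was 14451 to 14771 when 1 replicate was left out and 16314 for a positive and significant signal. The median SD between cultures, 0.25, became 0.20 with normexp background correction, 0.14 within the scan batch of 3 arrays, 0.27 with the positive and significant call, 0.31 over all genes with a probe and 0.19 for genes above the median signal, and lay between 0.22 and 0.26 when 1 replicate was left out. The count of genes with a 2-fold range, 3854, became 2228, 662, 8214 and 1000 with normexp, within the scan batch, over all genes and above the median signal, and was 2422 without replicate 1 and at most 3812 without another. The SD of the muscle list mean, 1.61, became 1.09 with normexp, 0.82 within the scan batch, 1.20 above the median signal and 1.24 for list genes on all arrays, and 1.30 to 1.79 when 1 replicate was left out (lowest without replicate 2, highest without replicate 6). The SD between spots, 0.058, became 0.191 with normexp and 0.057 to 0.0589 without 1 replicate. With the shift to a common 75th percentile, the list mean on replicate 1 minus the mean of the others changed sign for 5 lists, from -0.29 to 0.21 for endothelial genes, from -0.28 to 0.13 for unipolar brush and nuclear neuron genes, from -0.05 to 0.93 for nicotinic receptor genes, from -0.03 to 0.26 for neural progenitor genes and from -0.22 to 0.10 for choroid plexus and ependyma genes, and shrank from -0.40 to -0.08 for Purkinje cell, from -0.68 to -0.32 for granule cell, from -0.82 to -0.42 for interneuron, from -0.55 to -0.02 for glutamate receptor and from -0.92 to -0.29 for GABA-A receptor genes. The causes were not tested. Dim genes varied more, and low signal limits what can be said of genes under the rank that genes of other organs reach.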

Other observations

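Genes of regional identity were described beside those of cell types. Of 7 midbrain-hindbrain genes, 5 were on all 6 arrays (71.4%, against 70.6% of all genes): the engrailed factors En1 (lowest, median and highest log2 signal 8.63, 8.80 and 9.45) and En2 (6.78, 7.37 and 7.62), Pax5 (8.70, 8.96 and 10.05), Pax8 and Wnt1, while Fgf8, the signal of the embryonic isthmus, was on 0. Of 8 forebrain genes, 4 were on all arrays, among them Emx1, Lhx2 and Nkx2-1. Of 13 Hox genes, which pattern the body axis behind the cerebellum, Hoxa2 (5.67, 6.98 and 8.74) and Hoxd4 (5.06, 5.50 and 5.94) were on all 6 arrays. These 2 ranked at the 47.2nd and 35.0th percentiles.

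The mean of the activity-regulated genes had an SD of 0.074 log2, while single members differed more, with a 2.66-fold range for Fosb, which was 1.01 log2 above the mean of the others on replicate 1. The immediate early genes Fos (9.97, 10.38 and 10.77), Egr1 (10.95, 11.05 and 11.29) and Junb (12.21, 12.35 and 12.93) were on all 6 arrays. Npas4, a neuronal calcium-response factor, was on 0 and Bdnf, the neurotrophin, on 1.

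Further lists follow by their detection, to be read against the 70.6% of all genes on all 6 arrays. Of 9 cartilage and bone genes 5 were on all arrays, and the cartilage collagen Col2a1 ranged from 5.06 to 8.63. Of 7 epidermal genes Krt1 and Krt14 were on all arrays and Krt10 on 0. The haemoglobin gene Hbb was on 0 arrays, though 4 of the other red blood cell genes were on all 6. Of 8 lymphocyte and granulocyte genes, Cd3d was on all arrays (7.55, 7.88 and 9.40) and Cd3e, whose protein joins it in the T cell receptor complex, on 0. Of 6 Schwann cell genes 4 were on all arrays, with Pmp2, a myelin lipid carrier also known from astrocytes, at the 81.3rd percentile. Of 9 pericyte and smooth muscle genes 7 were on all arrays, and the smooth muscle myosin Myh11 lay at 10.97, 11.38 and 11.98.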
